A study of Homo sapiens with 12 samples.

Results

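The 7 genes described are MMP1, MMP2, MMP3, MMP14, TIMP1, TIMP2 and TIMP3, chosen by symbol as a family of proteases and their inhibitors, out of 61541 gene identifiers in the tables. All 7 were matched to their Ensembl identifiers and all 7 passed the filter on low counts, which left 12329 genes for testing. Polyadenylated RNA was sequenced from IMR90, an established line of wild-type human lung fibroblasts. Every group had been exposed to doxorubicin, an anthracycline that damages DNA and is used to drive cultured cells into senescence, for 24 h and then kept for at least 8 days. The groups were cells on plastic with 100 nM drug, cells on a 2 kPa hydrogel with 100 nM, cells on plastic with 250 nM and cells on the 2 kPa hydrogel with 250 nM, with 3 libraries in each and 12 in all. Untreated cells were not analysed here, so each difference is between substrates or doses among drug-treated cells. For the doses the titles are followed, since the treatment protocol writes µM in place of nM, and likewise for the hydrogel, which the growth protocol calls PDMS-coated plates. The series title asks how substrate stiffness shapes the secretory phenotype of senescent lung fibroblasts, and secreted proteases and their inhibitors belong to that phenotype.

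Matrix metalloproteinases are zinc enzymes that cut proteins of the extracellular matrix. Most are secreted as inactive precursors in which a cysteine of the propeptide occupies the catalytic zinc, and they become active when that contact is broken. The tissue inhibitors of metalloproteinases, or TIMPs, bind the active site and block it, so the balance of both families bears on how much matrix is degraded. MMP1 is the interstitial collagenase that opens fibrillar collagen, MMP3 is stromelysin-1, which degrades proteoglycans and can activate pro-MMP1, MMP2 is gelatinase A, and MMP14 is a membrane-anchored protease that activates pro-MMP2. TIMP1 and TIMP2 are soluble, TIMP2 also takes part in the activation of pro-MMP2 on the cell surface, and TIMP3 is held in the matrix. MMP1 and MMP3 are among the well-known secreted products of senescent fibroblasts.

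The stretches that define the proteases are printed to show how far the 4 genes resemble each other at the level that short reads would see. The zinc-binding site is shown as 33 coding bases on the strand of the gene, read 5′ to 3′ from the transcripts of GENCODE 29 on GRCh38, with the codons of the 3 zinc-binding histidines in capitals.
MMP1 (chr11:102795549-102795581, minus strand, exon 5): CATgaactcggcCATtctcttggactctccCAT
MMP3 (chr11:102840535-102840567, minus strand, exon 5): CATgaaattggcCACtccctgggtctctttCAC
MMP2 (chr16:55491827-55491859, plus strand, exon 8): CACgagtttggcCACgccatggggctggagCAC
MMP14 (chr14:22843283-22843315, plus strand, exon 5): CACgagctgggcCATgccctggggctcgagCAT
The cysteine switch, the propeptide stretch that holds the precursor inactive, is shown as 21 coding bases with the cysteine codon in capitals.
MMP1 (chr11:102797318-102797338, minus strand, exon 2): cccagaTGTggagtgcctgat
MMP3 (chr11:102842734-102842754, minus strand, exon 2): cccaggTGTggagttcctgat
MMP2 (chr16:55483053-55483073, plus strand, exon 2): ccacgcTGCggcaacccagat
MMP14 (chr14:22841926-22841946, plus strand, exon 3): ccccgaTGTggtgttccagac
In the zinc-binding site, MMP1 and MMP3 shared 24 of 33 bases and MMP2 and MMP14 shared 27 of 33, and in the cysteine switch MMP1 and MMP3 shared 19 of 21. Over longer windows the genes were distinct. Of all 50-base words in the transcripts of MMP1, MMP14, TIMP1 and TIMP3, 0% occurred in a transcript of another gene. For MMP3 the share was 2.88%, all in MMP10, which had 2 expected counts over the 12 libraries. For MMP2 it was 2.57%, in AC007336.3, and for TIMP2 it was 2.68%, in CEP295NL, and neither of these genes had more than 4 counts in a library.

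The genes lie on 6 chromosomes in GENCODE 29 (GRCh38). MMP1 (ENSG00000196611) spans chr11:102789920-102798160 and MMP3 (ENSG00000149968) spans chr11:102835801-102843803, both on the minus strand of the metalloproteinase cluster. MMP2 (ENSG00000087245) spans chr16:55389700-55506691 and MMP14 (ENSG00000157227) spans chr14:22836557-22849027, both on the plus strand. TIMP1 (ENSG00000102265) spans chrX:47582313-47586789 on the plus strand, TIMP2 (ENSG00000035862) spans chr17:78852977-78925387 on the minus strand and TIMP3 (ENSG00000100234) spans chr22:32801701-32863043 on the plus strand.

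The pseudogene WTAPP1 is annotated on the strand opposite to MMP1 and MMP3 and shares exonic bases with both, 150 of the 1970 exonic bases of MMP1 and 32 of the 2048 of MMP3. A coding stretch of each is printed because reads from them could be given to either gene when strand is not used. The strand setting of the counting is not given in the sources used here. For MMP3 the stretch was taken from a transcript of 296 bases, beside 2016 bases for its transcript with the longest coding sequence. How far that stretch adds to the counts of MMP3 was not tested.
MMP1 shared with WTAPP1 (chr11:102795174-102795224, minus strand, exon 6): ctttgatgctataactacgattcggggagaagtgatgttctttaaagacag
MMP3 shared with WTAPP1 (chr11:102836497-102836528, minus strand, exon 3 of ENST00000434103): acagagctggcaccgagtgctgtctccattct
A further stretch of MMP1, 99 bases of exon 1 at chr11:102798024-102798122, 69 of them coding, is shared with WTAPP1 too and is not printed. WTAPP1 itself had 7.04 expected counts in replicate 1 and 6.01 in replicate 3 on the gel at 100 nM, and was at 0 in the other 10 libraries, where a count of 0 allows up to 3. The counts of MMP1 in those 2 gel libraries were 3054 and 2346, and those of MMP3 were 851 and 154. What was assigned to WTAPP1 was small beside them. Reads of WTAPP1 that were given to MMP1 or MMP3 would not show in the WTAPP1 counts, and their number was not tested. TIMP2 too has an overlap on the opposite strand, sharing 367 of its 5633 exonic bases with AC022966.1. That gene had counts in 1 library only, 6 in all, beside at least 1606 counts of TIMP2 in every library. The same limit holds for reads of AC022966.1 that were given to TIMP2.

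The library totals ran from 5887056 to 7351916 expected counts at 100 nM and from 2229069 to 2730309 at 250 nM. The limit given above for a count of 0 covers counting error only. The intervals given below use the fitted standard error, which also includes the spread between libraries. All 250 nM libraries, and no 100 nM library, have file names that mention molecular identifiers, so drug dose and library set cannot be told apart. Replicate 1 on the gel at 250 nM stood apart, with a mean correlation of 0.858 to the other libraries of its group, against 0.909 to 0.963 for the remaining libraries, and with 14423 genes detected. Reads over ribosomal DNA loci made up 13.2% of it and 14.3% of replicate 1 on plastic at 100 nM, against 24.2% to 30.7% elsewhere. The share of 30.7% was in replicate 1 on the gel at 100 nM, which also had the most genes detected, 20498. The 11 fibroblast markers all passed the filter, with a summed level, in TPM, which is scaled for transcript length and library total, of 5042 to 6126 on plastic and 4286 to 5674 on gel at 100 nM, then 4883 to 5468 and 3920 to 4445 at 250 nM, without overlap at the latter dose. Of the 14 leukocyte markers none was tested, CD3E, ITGAM, TYROBP and AIF1 had no count, and the summed level was 0.62 to 2.82 TPM on plastic and 0.09 to 0.11 on gel at 100 nM, and 2.74 to 4.43 and 0.23 to 2.00 at 250 nM. Of the 12 epithelial markers 4 passed, led by KRT18, with KRT5, KRT14, SFTPC and SCGB1A1 at 0 throughout, and the sums were 50.4 to 87.4 TPM on plastic and 38.5 to 99.5 on gel at 100 nM, then 80.1 to 163 and 102 to 116 at 250 nM. Of the 10 endothelial markers 1 passed (TEK) and CLDN5 was at 0, with sums of 3.78 to 8.02 TPM on plastic and 1.81 to 3.25 on gel at 100 nM, and 6.23 to 9.34 and 2.14 to 6.78 at 250 nM. Of the 8 pericyte and smooth muscle markers 4 passed, and the summed level, led by the actin-binding protein gene CNN1, was 113 to 223 TPM on plastic and 56.2 to 100 on gel at 100 nM, and 145 to 201 and 112 to 117 at 250 nM. The pericyte and smooth muscle list and the leukocyte list were lower on the gel without overlap at both doses, the endothelial list at 100 nM and the fibroblast list at 250 nM. The part of these lists in the results below was not tested.

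By level, the inhibitors exceeded the proteases. TIMP1 had the highest mean level over the 12 libraries, 768 TPM, followed by TIMP3 with 370, TIMP2 with 195, MMP1 with 118, MMP2 with 92.1, MMP14 with 51.1 and MMP3 with 14.1. On plastic at 100 nM the order of group means was TIMP1, TIMP3, TIMP2, MMP2, MMP14, MMP1 and MMP3, and of these neighbours only MMP14 (23.8 to 69.0 TPM) and MMP1 (23.5 to 45.3 TPM) overlapped. On the gel at 100 nM MMP1 stood in the third place, at 140 to 274 TPM, above TIMP2 at 104 to 133 TPM, with TIMP3 and MMP1 overlapping and MMP14 and MMP3 overlapping. On plastic at 250 nM TIMP1 and TIMP3 overlapped, as did MMP2 and MMP1. On the gel at 250 nM the order was TIMP1, TIMP3, TIMP2, MMP1, MMP2, MMP14 and MMP3, with overlap between TIMP3 and TIMP2 and between MMP2 and MMP14. The place of MMP2 depends on its length estimate. RSEM, the program that made the values, weighted its short transcripts so that the gene was given a length of 558 to 991 bases, while its transcript with the longest coding sequence has 3741. At the full length its mean level would be 17.0 TPM, and the deposited mean is 5.42-fold that value. For TIMP1 the same ratio was 1.48, and for the other 5 genes it was at most 1.11. The full lengths are from GENCODE 29, while the annotation release behind the deposited lengths is not given. TIMP3 has 1 transcript in GENCODE 29, with 4603 bases, and its deposited length was 4597. The ratios therefore need not reflect the weighting of transcripts alone.

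**Figure D1:**
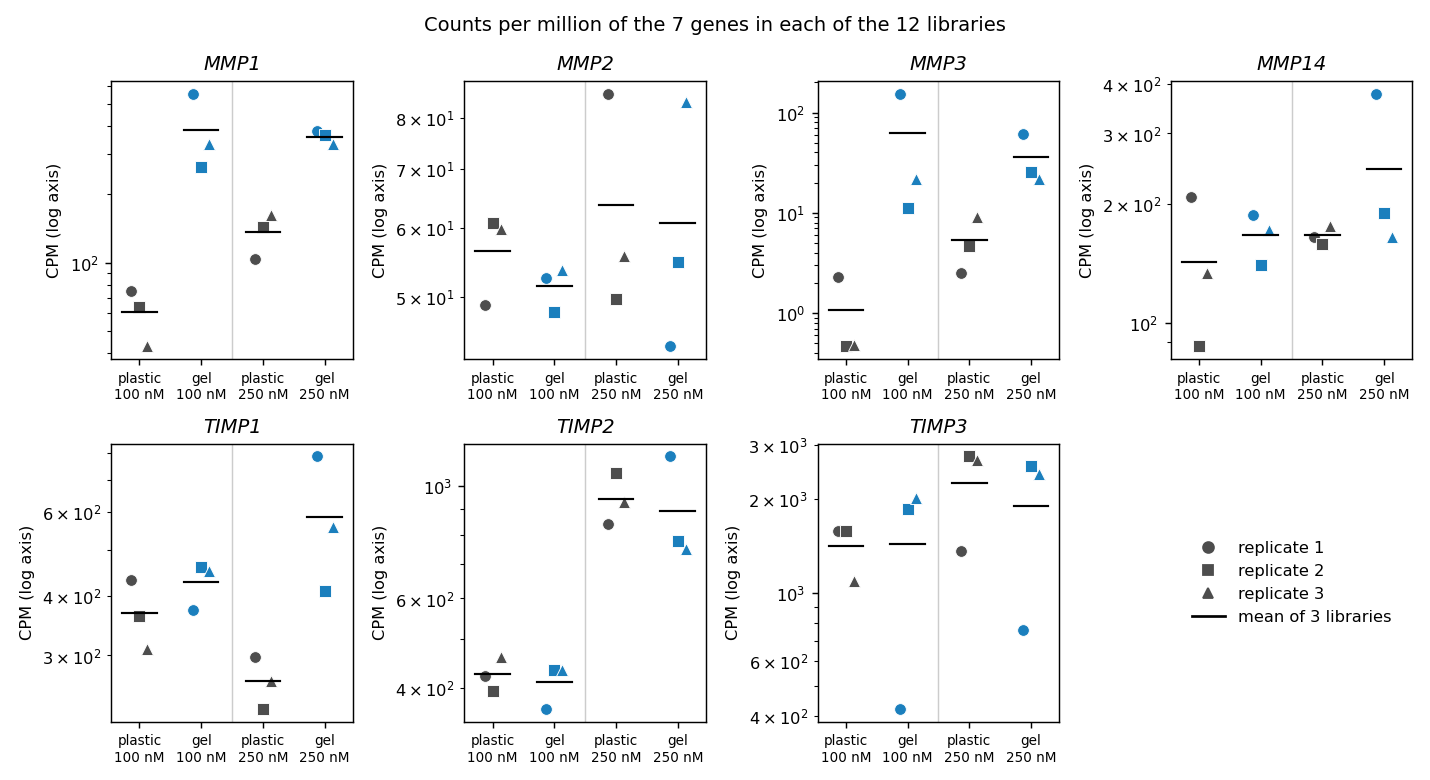
CPM (log axis) of each gene in each library, by substrate and dose, with 1 symbol per library, its shape giving the replicate number, and a line at the mean of the 3 libraries of a group. MMP1 and MMP3 sit higher on the gel than on plastic at both doses without overlap, and TIMP2 sits higher in all 250 nM libraries than in all 100 nM libraries.

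MMP1 was higher on the soft gel, and it gave the clearest difference of the 7 genes. Between libraries, levels are given as CPM, which is scaled for each library's effective total. At 100 nM the 3 plastic libraries had 75.5, 64.0 and 42.9 CPM of MMP1 and the 3 gel libraries had 554, 264 and 335 CPM. The groups did not overlap, and the lowest gel library was above every plastic one by more than the whole range within plastic. The fitted difference was 6.31-fold (95% interval 4.07 to 9.79, adjusted p = 0.00251, edgeR quasi-likelihood test with Benjamini-Hochberg adjustment over all genes tested). MMP1 was the only 1 of the 7 genes called in this comparison, in which 0.219% of all tested genes were called. In bulk RNA, more cells that express a gene and more RNA of it per cell cannot be told apart. Without replicate 1 of both gel groups the log2 difference was 2.30 against 2.66 with all libraries, with an adjusted p of 0.000618.

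At 250 nM the direction was the same. The plastic libraries had 103, 143 and 163 CPM of MMP1 and the gel libraries had 379, 364 and 334 CPM, again without overlap. The fitted difference was 2.63-fold (95% interval 1.72 to 4.02) with an adjusted p of 0.19, so it was not called. None of the 7 genes was called at 250 nM, where 0.00811% of tested genes were called, 1 gene in all, while 1224 genes had an unadjusted p under 0.05 and DESeq2 called 97. Averaged over both doses, MMP1 was 4.07-fold higher on the gel (95% interval 3.01 to 5.52, adjusted p = 0.000626), in 6 of 6 gel libraries above all plastic libraries. In that average 2 of the 7 genes, MMP1 and MMP3, were called, beside 0.795% of all tested genes. The same 2 genes were higher on the gel without overlap at both doses, as were 1.24% of all tested genes.

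MMP3, the lowest of the 7 genes on plastic, also rose on the gel in the average over both doses. At 100 nM the plastic libraries had 2.27, 0.465 and 0.475 CPM of MMP3, from 17, 3 and 3 expected counts, and the gel libraries had 154, 11.3 and 22.0 CPM, from 851, 82 and 154. Replicate 1 on the gel was far above the other gel libraries, and all 3 gel libraries were above all plastic ones. The fitted difference was 54.7-fold with a wide interval (95% interval 10.7 to 280), and its adjusted p was 0.0725, so it was not called. At 250 nM the plastic libraries had 2.48, 4.69 and 9.03 CPM and the gel libraries had 60.5, 25.2 and 21.5 CPM, a fitted difference of 6.59-fold (95% interval 1.48 to 29.4, adjusted p = 0.368). Replicate 1 was again the highest gel library. Averaged over both doses MMP3 was 19.0-fold higher on the gel (95% interval 6.31 to 57.1, adjusted p = 0.0207).

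The call for MMP3 was less firm than that for MMP1. It was lost, with adjusted p-values from 0.0524 to 0.0848, when 1 of these 8 libraries was left out: replicate 2 or 3 on plastic at 100 nM, any plastic library at 250 nM or any gel library at 250 nM. It was also lost with no filter on low counts (adjusted p = 0.0666). With both gel replicates numbered 1 left out, the libraries with the most MMP3, the log2 difference was 2.98 against 4.25 with all libraries, and the adjusted p was 0.0022. Leaving out only replicate 1 on the gel at 100 nM gave 3.30 (adjusted p = 0.00596), and leaving out replicate 1 on plastic at that dose gave 4.85 (adjusted p = 0.0208). At 100 nM alone the call was gained without those libraries (log2 difference 3.87, adjusted p = 0.0103), without robust estimation of the spread in edgeR (adjusted p = 0.0332) and with DESeq2 (adjusted p = 1.34e-05).

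**Figure D2:**
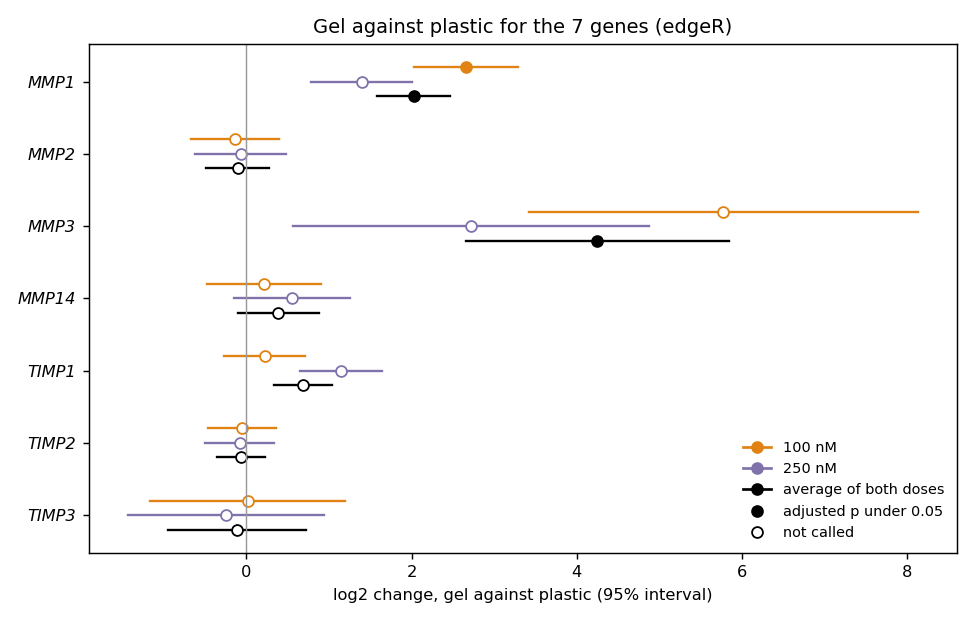
Fitted log2 change, gel against plastic, for the 7 genes at 100 nM, at 250 nM and averaged over both doses, with 95% intervals from edgeR. Filled points have an adjusted p under 0.05: MMP1 at 100 nM (2.66) and on average (2.03), and MMP3 on average (4.25). The intervals of MMP2, MMP14, TIMP2 and TIMP3 include 0 in each comparison.

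The other proteases did not pass the test between substrates. MMP14 had 207, 87.5 and 134 CPM on plastic and 187, 140 and 172 CPM on the gel at 100 nM, which overlap. At 250 nM it had 165, 159 and 176 CPM on plastic and 378, 189 and 165 CPM on the gel, where the high value is replicate 1, the library that stood apart. Averaged over both doses the difference was 1.31-fold (95% interval 0.93 to 1.84, adjusted p = 0.527). Without replicate 1 on the gel at 250 nM the log2 difference at that dose was 0.07 (adjusted p = 0.983) against 0.55 with it. MMP2, the partner that MMP14 activates, had 49.0, 60.7 and 59.8 CPM on plastic and 52.6, 48.1 and 53.8 CPM on the gel at 100 nM. At 250 nM it had 85.3, 49.8 and 55.8 CPM on plastic and 44.0, 54.9 and 83.4 CPM on the gel, from 106 to 206 counts in each library. The average log2 difference for MMP2 was -0.10 (95% interval -0.48 to 0.28, adjusted p = 0.881), and the libraries with the most and the least MMP2 were both at 250 nM.

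Among the inhibitors, TIMP1 was higher on the gel at 250 nM in value and was not called. Its plastic libraries had 298, 231 and 265 CPM at that dose and its gel libraries had 787, 411 and 559 CPM, without overlap. The fitted difference was 2.21-fold (95% interval 1.56 to 3.13, adjusted p = 0.19). At 100 nM TIMP1 had 431, 363 and 310 CPM on plastic and 374, 461 and 453 CPM on the gel, which overlap, and the difference was 1.17-fold (95% interval 0.829 to 1.64, adjusted p = 0.811). The average over both doses was 1.61-fold (95% interval 1.26 to 2.05) with an adjusted p of 0.0705. It passed the threshold in 5 of 26 settings, among them DESeq2 (adjusted p = 0.00746) and the fit that left out both gel replicates numbered 1 (adjusted p = 0.0262). The gel and plastic groups of 3 of the 7 genes, MMP1, MMP3 and TIMP1, did not overlap at 250 nM, beside 15.1% of all tested genes, and those of MMP1 and MMP3 did not overlap at 100 nM, beside 19% of all tested genes.

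TIMP2 and TIMP3 showed no difference between substrates that passed the test. TIMP2 had 423, 395 and 460 CPM on plastic and 364, 434 and 434 CPM on the gel at 100 nM, and 841, 1060 and 928 CPM on plastic and 1142, 780 and 752 CPM on the gel at 250 nM. Its average difference was 0.955-fold (95% interval 0.779 to 1.17, adjusted p = 0.903), the narrowest interval of the 7. TIMP3, with the most counts of the 7 genes, varied most between the libraries of a gel group among the inhibitors. It had 1581, 1575 and 1093 CPM on plastic and 421, 1858 and 2017 CPM on the gel at 100 nM. At 250 nM it had 1367, 2753 and 2673 CPM on plastic and 760, 2562 and 2406 CPM on the gel. In both gel groups replicate 1 was far below the others, and in the same 2 libraries MMP3 was at its highest. The average difference for TIMP3 was 0.923-fold (95% interval 0.517 to 1.65, adjusted p = 0.945), and without replicate 1 of both gel groups its log2 value was 0.29 with an adjusted p of 0.468. Replicate 1 at 250 nM is the library that stood apart in make-up. Replicate 1 at 100 nM had a correlation of 0.946 with its group, the lowest of that group. It also had the highest share over ribosomal DNA loci of all libraries (30.7%) and the lowest share of ribosomal protein genes (3.32%). The part of library make-up in the low TIMP3 was not tested.

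Whether the effect of the gel differed between doses was tested directly. None of the 7 genes was called, nor was any of the 12329 genes (0% of all tested genes, with 771 at an unadjusted p under 0.05). DESeq2 called 0 genes and edgeR with no filter on low counts called 63, none of them among the 7. For MMP1 the log2 gel effect at 250 nM minus that at 100 nM was -1.26 (95% interval -2.11 to -0.41, adjusted p = 0.755). For TIMP1 it was 0.92 (95% interval 0.23 to 1.62, adjusted p = 0.755), and for MMP3 it was -3.05 (95% interval -6.24 to 0.13, adjusted p = 0.755). The value for MMP3 rests on single libraries at 100 nM, since it was -1.14 without replicate 1 on the gel (adjusted p = 0.897) and -4.24 without replicate 1 on plastic (adjusted p = 0.973). The estimated gel effect was smaller for MMP1 and larger for TIMP1 at the higher dose, and neither difference passed the adjustment over all genes.

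In the comparison of doses, TIMP2 was higher at 250 nM on both substrates. The 6 libraries at 100 nM lay between 364 and 460 CPM and the 6 at 250 nM between 752 and 1142 CPM. The difference was 2.21-fold on plastic (95% interval 1.65 to 2.96, adjusted p = 0.00597) and 2.17-fold on the gel (95% interval 1.62 to 2.91, adjusted p = 0.00531), and the call held in 27 of 27 settings on each substrate. MMP1 was 2.24-fold higher at 250 nM on plastic (95% interval 1.47 to 3.43, adjusted p = 0.0243), while on the gel the ratio was 0.935 (95% interval 0.619 to 1.41, adjusted p = 0.846). These calls, 2 of 7 genes on plastic and 1 of 7 on the gel, stand beside 8.61% and 13.8% of all tested genes called in the same comparisons. The groups of 4 of the 7 genes on plastic (MMP1, MMP3 and TIMP2 higher at 250 nM, TIMP1 lower) and of 1 on the gel (TIMP2) did not overlap between doses, beside 35.8% of all tested genes on each substrate. The call for MMP1 on plastic was lost without replicate 2 or 3 of either plastic group, with adjusted p-values from 0.0645 to 0.127. Dose cannot be told apart from library set in any of these values.

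The ratio of protease to inhibitor transcripts was taken per library from the deposited TPM and is a description with no test. The summed level of the 4 proteases was 135 to 195 TPM on plastic and 266 to 480 TPM on the gel at 100 nM, and 165 to 278 and 301 to 428 TPM at 250 nM. The summed level of the 3 inhibitors was 1007 to 1448 TPM on plastic and 866 to 1448 TPM on the gel at 100 nM, and 1159 to 1277 and 1369 to 1994 TPM at 250 nM. In every library the inhibitors outweighed the proteases. At 100 nM the ratio of proteases to inhibitors was 0.138 ± 0.0177 on plastic and 0.322 ± 0.203 on the gel (SD, n = 3 each), with ranges of 0.123 to 0.158 and 0.186 to 0.555 that do not overlap. At 250 nM the ratio was 0.177 ± 0.0568 on plastic and 0.219 ± 0.00425 on the gel (SD, n = 3 each), and the ranges overlap. That overlap rests on the length given to MMP2. With MMP2 at the length of its full transcript, an alternative chosen after seeing the data, the ratio at 250 nM was 0.1003 to 0.116 on plastic and 0.142 to 0.177 on the gel, without overlap. At 100 nM it was then 0.0666 to 0.0914 on plastic and 0.141 to 0.487 on the gel. The highest ratio came from replicate 1 on the gel at 100 nM, where MMP1 and MMP3 were at their highest and TIMP3 at its lowest.

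MMP1 made up more of the protease sum on the gel than on plastic. Its share of protease TPM was 14.8% to 23.7% on plastic and 52.6% to 57.1% on the gel at 100 nM, and 20.1% to 42.3% and 43.0% to 54.9% at 250 nM. With MMP2 at its full length these shares were 28.3% to 43.7% and 65.1% to 69.3% at 100 nM, and 41.4% to 54.6% and 56.0% to 68.3% at 250 nM. MMP3 gave 17.1% of protease TPM in replicate 1 on the gel at 100 nM and at most 7.95% in any other library. TIMP3 gave 9.99% and 8.27% of inhibitor TPM in replicate 1 of the gel groups at 100 and 250 nM, against 24.7% to 43.9% elsewhere. The ratio of MMP1 to TIMP1, its classical inhibitor, was 0.0382 to 0.0499 on plastic and 0.158 to 0.406 on the gel at 100 nM. At 250 nM it was 0.0948 to 0.168 on plastic and 0.133 to 0.243 on the gel, which overlap, since both genes had higher values on the gel at that dose.

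**Figure D3:**
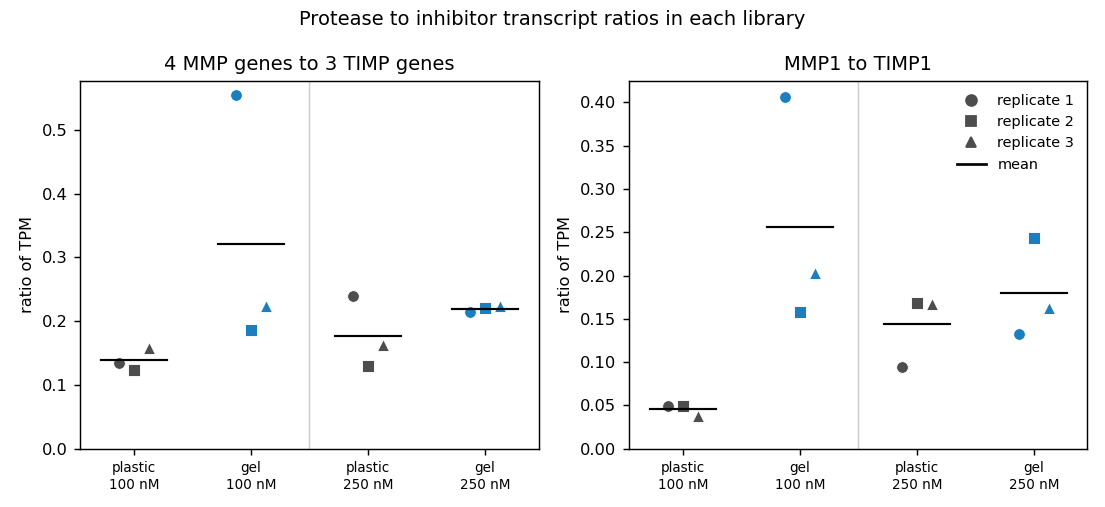
Ratio of summed TPM of the 4 proteases to that of the 3 inhibitors (left) and ratio of MMP1 to TIMP1 TPM (right) in each library, with 1 symbol per library, its shape giving the replicate number, and a line at the group mean. At 100 nM the gel libraries lie above all plastic libraries in both panels, and at 250 nM gel and plastic overlap. With MMP2 at its full transcript length the left panel's groups would not overlap at 250 nM either (0.1003 to 0.116 on plastic and 0.142 to 0.177 on the gel).

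The genes whose pattern over the 12 libraries was most like that of MMP1 and of MMP3, the 2 members called in the average, were looked up among 10930 tested protein-coding genes. Likeness was the root mean square difference in log2 CPM after centring each gene within its dose, and all profiles share the same libraries, so it is a description. Since MMP1 and MMP3 were higher on the gel, the gel differences of genes picked for likeness to them follow in part from that choice. For MMP1, whose own profile has a root mean square of 1.10, the nearest were TFPI2 at 0.304, SLC16A6 at 0.416 and TNFSF15 at 0.434. TFPI2 encodes a secreted Kunitz-type inhibitor of serine proteases that is deposited in the matrix, SLC16A6 a solute carrier and TNFSF15 a cytokine of the tumour necrosis factor family. TFPI2 had 79.9, 58.4 and 24.5 CPM on plastic and 413, 140 and 172 CPM on the gel at 100 nM, and 51.3, 83.1 and 89.9 CPM on plastic and 263, 197 and 163 CPM on the gel at 250 nM. Replicate 1 was the highest gel library at both doses, and the groups did not overlap at either. Averaged over both doses TFPI2 was 3.51-fold higher on the gel (95% interval 2.16 to 5.70, adjusted p = 0.0207), a call that 19 of 26 settings kept. SLC16A6 was 5.13-fold higher on the gel at 100 nM (adjusted p = 0.0376) and 3.34-fold on average (adjusted p = 0.0164), calls made in 14 of 27 and 21 of 26 settings. Leaving out replicate 1 on the gel at 100 nM moved the log2 change of SLC16A6 at that dose from 2.36 to 1.57 and ended the call (adjusted p = 0.0714), and with any 1 library left out its adjusted p there ran from 0.0162 to 0.222. TNFSF15, at 0.158 to 6.17 CPM, was not called by edgeR (adjusted p = 0.102 in the average), and DESeq2 called it in the average (adjusted p = 0.029).

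For MMP3, whose own root mean square is 2.15, the nearest genes were IL1B at 1.08, EHF at 1.09 and MMP1 at 1.13. IL1B encodes the cytokine interleukin-1 beta and EHF an ETS-family transcription factor. IL1B had 0.801, 0.619 and 2.06 CPM on plastic and 125, 3.30 and 7.13 CPM on the gel at 100 nM, and 4.14, 1.88 and 1.18 CPM on plastic and 19.2, 6.31 and 3.79 CPM on the gel at 250 nM. Its highest libraries were replicate 1 of the gel at both doses, the libraries where MMP3 was highest too. EHF had 47.9 CPM in replicate 1 on the gel at 100 nM and at most 8.84 CPM elsewhere. By edgeR neither gene was called in a gel comparison, with adjusted p-values for the average of 0.112 for IL1B and 0.135 for EHF. DESeq2 called both, at 100 nM (adjusted p = 0.00474 for IL1B and 0.00404 for EHF) and in the average (0.00361 and 0.0113). EHF was also called by edgeR with no filter on low counts at 100 nM (adjusted p = 9.37e-09) and in the average (5.15e-06), and IL1B in the average without replicate 2 on the gel at 100 nM (0.0305).

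**Figure D4:**
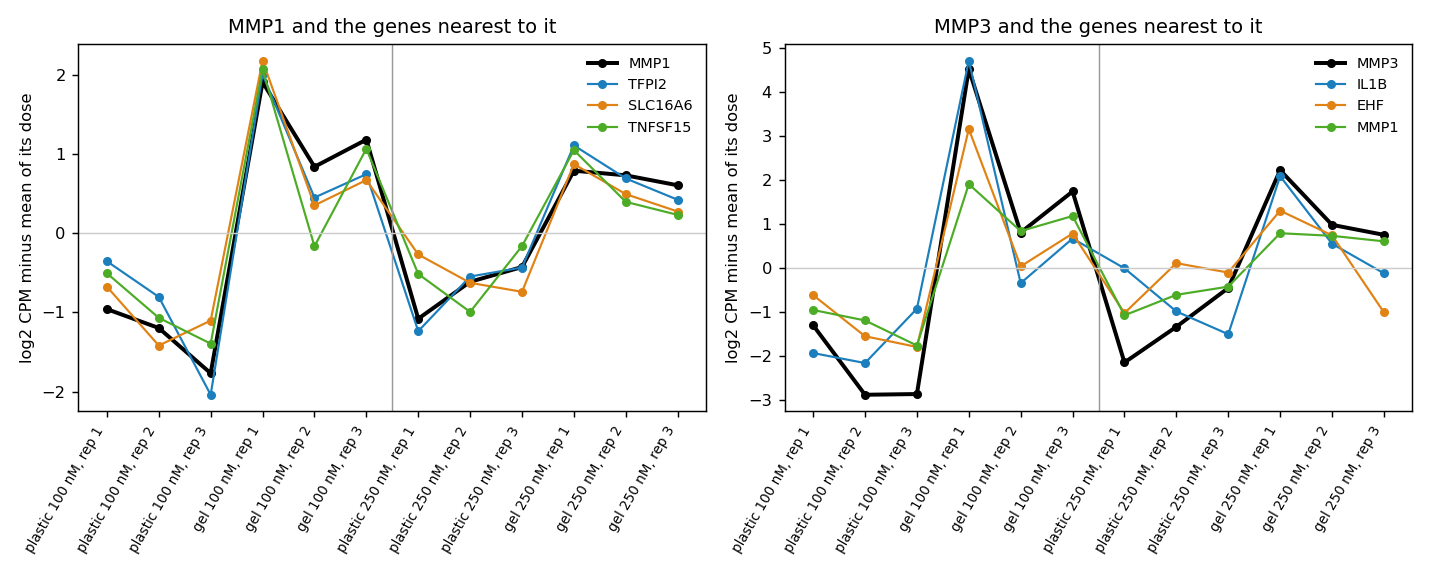
Log2 CPM minus the mean of the same dose, library by library, for MMP1 with its 3 nearest genes (left) and MMP3 with its 3 nearest genes (right). The lines join libraries to guide the eye, and the replicates have no order. Every profile peaks at replicate 1 on the gel at 100 nM, and MMP1, MMP3, TFPI2 and SLC16A6 lie above their dose mean in all 6 gel libraries.

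Other genes of the pathway were counted by lists. The shares of all tested genes given beside list counts are those of edgeR. DESeq2, limma-voom and the fit with no filter each called more genes for gel against plastic, as given below. Of 19 other metalloproteinases, 3 were tested (MMP16, MMP19 and MMP23B) and 0 were called in a gel comparison by edgeR, with 1 at an unadjusted p under 0.05 at 100 nM and in the average. DESeq2 called 1, MMP16, at 100 nM. Their median log2 change averaged over both doses was -0.51, beside -0.00476 for all tested genes, and the 16 that were not tested had at most 68.2 counts each over the 12 libraries. MMP16, a membrane-anchored protease, had a mean level of 2.32 TPM and an average log2 change of 0.56 (adjusted p = 0.26). MMP23B had 2.69 TPM. The other collagenases (MMP8 and MMP13), gelatinase B (MMP9) and stromelysin-2 (MMP10) were among those not tested.

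Of 13 other inhibitors, activators and clearance receptors, 10 were tested, and in the average 1 rose by edgeR, TFPI2, and none fell, beside 0.795% of all tested genes called. DESeq2 called 2, TFPI2 and THBS2. The list median was -0.18 beside -0.00476 for all tested genes. PLAT, the tissue plasminogen activator, had the highest level of the list, 140 TPM, with an average log2 change of -0.06 (adjusted p = 0.949), and TFPI2 followed with 129 TPM. Of 9 ADAM proteases, the membrane-bound shedding enzymes, 6 were tested and none was called in a gel comparison by edgeR, with 2 at an unadjusted p under 0.05 in the average and a median of -0.21. DESeq2 called 2 in the average, ADAM9 and ADAM10. ADAM19 (39.2 TPM) and ADAM9 (38.7 TPM) were the most abundant, and ADAM9 had an average log2 change of -0.69 (adjusted p = 0.0646). It passed the threshold in 7 of 26 settings, among them DESeq2 (adjusted p = 0.00293), limma-voom (0.00397), no filter on low counts (0.00554) and upper-quartile scaling (0.0481).

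Of 19 secreted ADAMTS proteases 7 were tested, none rose, and 1 fell in the average by edgeR, beside 0.795% of all tested genes called, with a list median of -0.76 beside -0.00476 for all tested genes. In the average DESeq2 called 1 of the 7, ADAMTS2, limma-voom called 4 and the fit with no filter on low counts called 2. The member that fell by edgeR was ADAMTS2, a procollagen N-proteinase that trims fibrillar procollagens. ADAMTS2 had 29.8, 22.5 and 27.2 CPM on plastic and 15.1, 17.9 and 12.7 CPM on the gel at 100 nM, and 31.0, 43.7 and 26.3 CPM on plastic and 17.2, 15.0 and 14.7 CPM on the gel at 250 nM. All gel libraries were below all plastic libraries, and the average was 1.93-fold lower (log2 change -0.95, 95% interval -1.32 to -0.58, adjusted p = 0.0207), a call that 19 of 26 settings kept. ADAMTS1 (42.1 TPM) and ADAMTS12 (6.68 TPM) had the highest levels of the list and were not called. The last list held 14 AP-1 and ETS transcription factors, families known to act on metalloproteinase promoters, and all 14 were tested. None of the 14 was called in a gel comparison by edgeR or DESeq2. In the average 1 had an unadjusted p under 0.05 and limma-voom called 1. Their median in the average was 0.10, with 9 of 14 above 0, and JUN (82.1 TPM) and ETS2 (30.8 TPM) were most abundant. The list does not hold every ETS factor. EHF, described above, was not in it and was called by DESeq2 at 100 nM and in the average.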

How the data were processed

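Gene tables of 12 libraries were used. The deposited tables hold expected count, TPM and FPKM values estimated per gene by RSEM, per the file headers, of which FPKM was not used. Per the submitters' processing notes, Trimmomatic, STAR, RSEM, DESeq2 1.36.0 and GRCh38 were used. Not given in the sources used here are the annotation release, the strand setting and any collapsing of molecular identifiers. Symbols came from the supplied name table, which matched 61369 of 61541 identifiers, and loci and sequences from GENCODE 29.

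Expected counts were rounded and fitted in R 4.3.3 with edgeR 4.0.16 (filterByExpr with 4 groups, 12329 genes, TMM, robust quasi-likelihood, 1 mean per group, 8 residual degrees of freedom, common coefficient of variation 0.299). Benjamini-Hochberg adjustment ran over all genes within each of 6 comparisons, called under 0.05. Intervals use the fitted standard error. Log2 CPM had a prior count of 2. Nothing says that replicates were separate cultures, so p-values measure the spread between these samples.

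The members and lists were chosen with earlier results of these data known. Named were the 7 members, list members called in a gel comparison, the 2 with the highest mean TPM in a list, and the 3 genes most like each member called in the average. Alternatives were other size factors, no filter, thinned counts, DESeq2 1.42.0, limma 3.58.1 (voom, and trend on log2 TPM with pseudocounts of 1 and 0.1), no mitochondrial or ribosomal DNA loci, the compared groups alone, a replicate block, each library left out and, added after seeing the data, edgeR without robust estimation and with adjusted deviances. On simulated data for gel against plastic at 100 nM (12069 genes), the test recovered 14% of 2-fold and 65% of 4-fold changes with 6 false calls.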

Additional observations from a re-analysis of the deposited data

How the results depend on the processing

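MMP1 rose on the gel in 27 of 27 settings at 100 nM (log2 change 2.30 to 2.87) and in 26 of 26 in the average (1.83 to 2.13), and TIMP2 was higher at 250 nM in 27 of 27 settings on each substrate. At 250 nM MMP1 was called in 4 of 27 settings (no filter, DESeq2, limma-voom, and the fit without both gel replicates numbered 1) and TIMP1 in 3. MMP3 was called in 5 of 27 settings at 100 nM and in 17 of 26 in the average. Of 1811 alternative values of single genes, 1647 kept their direction and side of the threshold, 63 lost and 43 gained a call, and 58 changed sign. Each sign change was in a value that had not passed the test, and the cause was not tested. A fit with the compared groups alone gives no average or difference, and 1 alternative value had no adjusted p.

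Genes called at 100 nM, at 250 nM and in the average, for gel against plastic, were 27, 1 and 98. With DESeq2 they were 163, 97 and 385, with limma-voom 447, 161 and 801, with no filter 231, 181 and 468, with limma on log2 TPM 7, 3 and 53 (pseudocount 1) or 9, 4 and 44 (pseudocount 0.1), and without both gel replicates numbered 1 they were 114, 19 and 358. With the compared groups alone 10 genes were called at 100 nM and 0 at 250 nM. At 250 nM thinned counts gave 3 and upper-quartile scaling gave 2. With no filter 63 genes were called for the difference between doses. For dose on plastic (1061 genes) DESeq2 called 1667, limma-voom 3173, limma on log2 TPM 701 and 594, the compared groups alone 1693, and the fit without replicate 1 of both gel groups 2547. For dose on the gel (1703 genes) limma-voom called 2925, the compared groups alone 516, and the fit without replicate 1 of both gel groups 748.

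Members called at 100 nM were 2, against 1, with DESeq2, without robust estimation and without both gel replicates numbered 1. At 250 nM they were 2, against 0, with DESeq2, limma-voom or no filter, and 1 without both gel replicates numbered 1. For dose on plastic they were 1 with limma on log2 TPM at either pseudocount, against 2.

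With 1 library left out at a time, genes called ranged from 5 to 119 for gel at 100 nM (fewest without replicate 2 on plastic at 100 nM, most without replicate 1 on the gel at 250 nM), 1 to 6 at 250 nM, 38 to 262 in the average, 118 to 2228 for dose on plastic (fewest without replicate 2 on plastic at 250 nM) and 679 to 1861 for dose on the gel (fewest without replicate 1 on the gel at 100 nM). Members called ranged from 1 to 2 at 100 nM, in the average and for dose on plastic. The log2 changes that crossed 0 ranged as follows. For MMP1, dose on gel was -0.31 to 0.28. For MMP2, gel at 250 nM was -0.39 to 0.19, the average -0.26 to 0.026, the difference -0.25 to 0.33, dose on plastic -0.11 to 0.31 and dose on gel -0.087 to 0.40. For MMP3, dose on gel was -1.43 to 1.13. For MMP14, gel at 100 nM was -0.041 to 0.60, the difference -0.15 to 0.60 and dose on plastic -0.029 to 0.60. For TIMP2, gel at 100 nM was -0.11 to 0.027, at 250 nM -0.31 to 0.005 and the difference -0.26 to 0.063. For TIMP3, gel at 100 nM was -0.31 to 0.45, at 250 nM -0.52 to 0.12, the average -0.28 to 0.10, the difference -0.71 to 0.10 and dose on gel -0.017 to 0.77.

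Other sign changes, in log2 units, came from these settings. Limma on log2 TPM gave TIMP3 at 100 nM -0.34 at either pseudocount, MMP2 at 250 nM 0.23 (pseudocount 1) and 0.24 (0.1), and MMP2 in the average 0.073 and 0.074. Limma-voom gave dose on gel 0.078 for MMP1 and 0.13 for MMP3, TIMP2 at 100 nM 0.026, the difference for MMP14 -0.43, MMP2 for dose on plastic -0.027, in the average 0.054 and at 250 nM 0.29, TIMP3 in the average 0.076, and EHF at 250 nM -0.15. Thinned counts gave the difference for TIMP2 as 0.016 and TIMP3 at 100 nM as -0.004, and upper-quartile scaling gave the latter as -0.005. Without replicate 1 of both gel groups, dose on gel was 0.22 for MMP1 and 0.49 for MMP3, MMP2 at 250 nM was 0.12, the difference for MMP14 was -0.041, TIMP2 at 100 nM was 0.028, and TIMP3 was 0.13 at 250 nM and 0.29 in the average.

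The replicate numbers were checked for pairing. Deviations of same-numbered libraries correlated between -0.236 and 0.141 and not all were above 0.1, so the numbers were treated as names. With 3 libraries in a group this check cannot exclude that same-numbered libraries were handled together. With the replicate number as a block, 33, 2 and 107 genes were called for gel at 100 nM, at 250 nM and in the average, 0 for the difference, and 1104 and 1688 for dose on plastic and on gel. The block added a call for MMP3 at 100 nM (log2 change 5.46, adjusted p = 0.0228), which made 2 members called, and gave TIMP3 at 100 nM as -0.33.

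Depth was lowest for MMP3 on plastic, where 3 counts in each of 2 libraries at 100 nM limit the fold that can be stated.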

Other observations

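Genes of the same pathway lists also differed between doses, and all that edgeR called were lower at 250 nM, 4 of 40 tested list genes on plastic (10%, beside 8.61% of all tested genes) and 5 of 40 on the gel (12.5%, beside 13.8%). They are named here because their counts were small, after their values were seen, and dose cannot be told apart from library set. ADAM9, a membrane-bound shedding protease, was 2.61-fold lower at 250 nM on plastic (log2 change -1.38, adjusted p = 0.00476) and 2.66-fold lower on the gel (log2 change -1.41, adjusted p = 0.00465). MMP16 was 2.87-fold lower on the gel (adjusted p = 0.00738) at 250 nM. Its mean level at 100 nM was 23.9 CPM on plastic and 49.9 CPM on the gel, and at 250 nM it was 16.7 and 17.5 CPM. ADAM10, an alpha-secretase, was 1.82-fold lower on the gel (adjusted p = 0.00757), and ADAMTS1 was 3.06-fold lower there (adjusted p = 0.0119). On plastic, PLAU, the urokinase plasminogen activator, was 7.83-fold lower (adjusted p = 0.0271) and the ETS-domain factor ELK1 was 3.70-fold lower (adjusted p = 0.0116). ETS1 was lower on both, 2.40-fold on plastic (adjusted p = 0.0104) and 2.51-fold on the gel (adjusted p = 0.00664). These tests are edgeR quasi-likelihood tests adjusted over all genes. ADAM9, MMP16, ADAM10 and, on the gel, ETS1 were called in 27 of 27 settings. ADAMTS1 on the gel and ELK1 on plastic were called in 25 of 27, and ETS1 on plastic in 23 of 27. PLAU was called in 19 of 27. Its level on plastic at 100 nM was 129 ± 149 CPM (SD, n = 3), and without replicate 1 of that group the log2 change was -1.39 (adjusted p = 0.0402) against -2.97 with it. The call for PLAU was lost without replicate 2 or 3 on plastic at 250 nM (adjusted p = 0.118 and 0.135) or replicate 1 on the gel at 250 nM (0.0546). It was also lost with no filter on low counts (0.1), with the compared groups alone (0.119) and without both gel replicates numbered 1 (0.0732). Limma on log2 TPM lost it too (0.0577 with pseudocount 1 and 0.0638 with 0.1).

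MMP1 and MMP3 are 2 of 9 metalloproteinase genes that lie side by side on chromosome 11. Over the 12 libraries MMP1 had 12228 expected counts and MMP3 1435, and the remaining 7 genes of the cluster had at most 11 each (MMP12), with MMP20 at 0. The neighbours on either side of the MMP1 and MMP3 pair, MMP10 and MMP12, reached at most 0.25 and 0.93 TPM in any library.

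Promoter sequences of 300 bases, 250 before the start and 50 after it, were given by RefSeq for 3 of the 7 genes, MMP14, TIMP1 and TIMP3. The AP-1 motif TGANTCA was searched on both strands and had 0 matches in each of the 3, and 7.71% of the 35116 promoters of the same length hold it. Only exact letters were counted, so close variants, such as TGAGTAA in TIMP1, were missed. A count of 0 therefore does not exclude an AP-1 site. The ETS motif AGGAAN had 2 matches in MMP14, 2 in TIMP1 and 0 in TIMP3, and 63.0% of promoters hold it. The TATA box letters TATAAA had 0 matches in each, and 11.5% of promoters hold them.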
